A study of Mus musculus with 4 samples.

Results

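Layer 6b nuclei were found by their transcripts, and their number per library comes first. Among nuclei with more than 600 genes and under 5% mitochondrial UMIs (unique molecular identifiers, each standing for 1 captured RNA molecule), a nucleus was taken as layer 6b when it held at least 1 UMI of Slc17a7, at most 1 UMI of Gad1 and Gad2 together, and UMIs of at least 2 of the 4 genes Cplx3, Nxph4, Moxd1 and Ccn2. This gave 55 of 12362 nuclei in Sel1Lfl/fl replicate 1, 38 of 8436 in Sel1Lfl/fl replicate 2, 34 of 8065 in Sel1LSynCre replicate 1 and 33 of 7231 in Sel1LSynCre replicate 2, which is 160 of 36094 in all. Of the kept nuclei, 19737 met the Slc17a7 and Gad criteria.

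The study removed Sel1L, the adaptor of an endoplasmic reticulum (ER) ubiquitin ligase complex, from neurons and asked what single-nucleus RNA of the forebrain then showed. The 4 libraries came from cortex and hippocampus of mice at 5 weeks of age, with 1 mouse per library and nuclei that were sorted before loading. By their labels, the 2 Sel1Lfl/fl mice carried floxed Sel1L alleles without Cre (1 of them held Cre transcripts, as given below), and the 2 Sel1LSynCre mice carried the same floxed alleles with Cre driven by the Synapsin I promoter. That promoter is active across many neuron types and may not reach every neuron, and recombination in single nuclei was not analysed here.

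Layer 6b is the deepest layer of the cerebral cortex, a thin sheet of glutamatergic neurons above the white matter, and many of its cells descend from the subplate, the earliest-born cortical neurons. Layer 6b neurons express receptors for neuromodulators, among them the orexin receptor Hcrtr2 and the dopamine receptor Drd1, and they project within the cortex and to the thalamus. Their close neighbours are the layer 6 corticothalamic (CT) neurons, which share several transcription factors with them. SEL1L works in ER-associated degradation (ERAD), which pulls misfolded proteins out of the ER for destruction. When misfolded proteins build up, the unfolded protein response (UPR) raises chaperones and folding enzymes, and the integrated stress response raises amino acid transporters and tRNA synthetases.

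As a share of kept nuclei, layer 6b stood at 0.445% (95% Wilson interval 0.342 to 0.579) and 0.450% (0.328 to 0.618) in the Sel1Lfl/fl libraries, and 0.422% (0.302 to 0.589) and 0.456% (0.325 to 0.640) in the Sel1LSynCre libraries. The intervals cover counting error only, and all of them overlap. The difference was -0.00871 percentage points, and an exact permutation test gave p = 1, where 2 mice against 2 cannot go below 0.33. Because the rule asks for UMIs of sparse genes, the share also depends on depth, and the median UMIs per layer 6b nucleus were 16603, 14410, 13818.5 and 14028 in the same order. As a share of Slc17a7 nuclei the members stood at 0.847% and 0.848% in the Sel1Lfl/fl libraries and at 0.778% and 0.752% in the Sel1LSynCre libraries, so that the genotypes did not overlap, with intervals that do (exact permutation p = 0.33, the smallest possible). With each nucleus thinned to 4000 UMIs the shares were 0.200%, 0.0822%, 0.118% and 0.0860%, resting on 18, 5, 7 and 5 members. The members of a library summed to 1140938, 632458, 601566 and 529503 UMIs.

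Most members passed the rule narrowly. Exactly 2 of the 4 rule genes were detected in 101 members, 3 in 49 and all 4 in 10. Ccn2, a secreted matrix-associated protein, was detected in 149 members, Moxd1, a monooxygenase family protein, in 122, Cplx3, a complexin of the vesicle fusion machinery, in 95, and Nxph4, a neurexophilin, in 23. The commonest combination was Moxd1 with Ccn2 (53 nuclei), followed by Cplx3, Moxd1 and Ccn2 together (43) and Cplx3 with Ccn2 (35). Just outside the rule were 743 nuclei with only 1 of the 4 genes. They had a median of 1 of the 9 layer 6b markers that the rule did not use, while the members with 2 rule genes and those with 3 or 4 both had a median of 5. Tmem163, a zinc transporter of vesicles, stood, over all libraries together, at 72.4 CPM (the UMIs of a gene scaled to 1000000 UMIs of those nuclei) in the nuclei outside the rule, at 390 CPM in members with 2 rule genes and at 463 CPM in members with 3 or 4. The lipid phosphatase Inpp4b was at 251, 1444 and 1737 CPM. Between members with 2 and with 3 or 4 rule genes there was no common order. Hcrtr2 went from 98.7 to 28.4 CPM, Rxfp1 from 148 to 130 CPM, Col8a1 from 56.2 to 37.8 CPM and Drd1 from 44.4 to 39.3 CPM, and within Sel1LSynCre replicate 1 Tmem163 (511 and 351 CPM) and Inpp4b (1743 and 1455 CPM) were lower with 3 or 4 as well.

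The label was checked against those 9 further markers, given as levels with no test because the members were picked from the same nuclei. Inpp4b was at 1831 and 1263 CPM in the members of Sel1Lfl/fl replicates 1 and 2 and at 1619 and 1386 CPM in those of Sel1LSynCre replicates 1 and 2, against 96.2 to 128 CPM in layer 6 CT nuclei of the same libraries. Tmem163 was at 486, 323, 442 and 391 CPM against 29.2 to 39.9 CPM. All 4 libraries of layer 6b thus lay above all 4 of layer 6 CT for both genes, and the same was true of the nuclear receptor Nr4a2, the lysophosphatidic acid receptor Lpar1, Drd1, the relaxin receptor Rxfp1 and the collagen Col8a1. Nr4a2 stood at 116, 112, 128 and 162 CPM and Drd1 at 31.6, 58.5, 46.5 and 39.7 CPM. Hcrtr2 overlapped between the classes, with 66.6, 36.4, 73.1 and 88.8 CPM in layer 6b and 27.2 to 50.3 CPM in layer 6 CT. The peptide gene Trh was nearly absent, with UMIs in 2 members. The markers thus went with the label for 7 of 9 genes in all libraries.

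Layer 6 CT nuclei were defined for the comparison as Slc17a7 nuclei outside layer 6b with at least 3 of the 5 genes Foxp2, Hs3st4, Syt6, Rprm and Crym. They numbered 2946 (961, 624, 645 and 716 per library). Higher Foxp2 and Crym in that class are partly built in by the definition. The transcription factor Foxp2 was at 95.5, 141, 130 and 164 CPM in layer 6b and between 422 and 526 CPM in layer 6 CT, and Crym, a thyroid hormone binding protein, at 14.9, 34.8, 23.3 and 20.8 CPM against 94.9 to 120 CPM. Hs3st4, a heparan sulfate sulfotransferase that served in that definition, was no lower in layer 6b, with 2969, 2788, 2809 and 3016 CPM against 2060 to 2351 CPM. The other class used below, layer 5/6 near-projecting (NP) nuclei, held at least 3 of Tshz2, Vwc2l, Slc17a8, Lypd1 and Trpc7 and numbered 701.

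**Figure D1:**
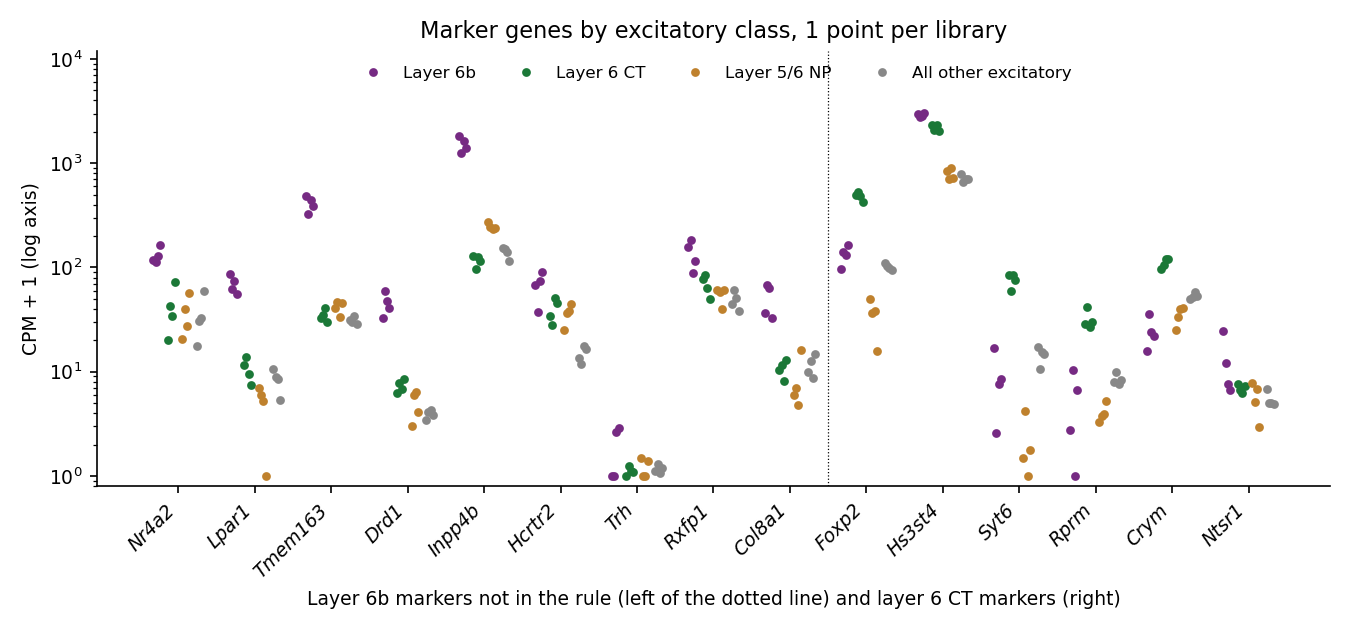
Each point is 1 library, and the vertical axis gives CPM + 1 on a log scale. Colours mark layer 6b, layer 6 CT, layer 5/6 NP and all Slc17a7 nuclei outside layer 6b, which include the CT and NP nuclei. Inpp4b and Tmem163 of layer 6b stand above every other class, and Hcrtr2 overlaps with layer 6 CT. Foxp2 and Crym, which served to define layer 6 CT, are lower in layer 6b than in that class.

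Outside the lists, the genes that led layer 6b over all other Slc17a7 nuclei were ranked by the lowest ratio of CPM in any library, over 4645 genes with at least 100 UMIs. After the rule genes Cplx3, Ccn2 and Moxd1 came Clic5, a chloride intracellular channel family protein, with a lowest ratio of 27.5 and 46.5, 50.6, 68.2 and 66.1 CPM in the 4 libraries. Svil, an actin-binding protein of the cell cortex, followed with a lowest ratio of 24.3, at 593, 264, 352 and 229 CPM. The next 5 were the transcripts Gm45321, Gm2516, C130073E24Rik, 4930555F03Rik and Gm45323, with lowest ratios from 17.7 to 22.0. Drd1 had a lowest ratio of 13.0, the protease Pappa2 of 11.9 and Tmem163 of 11.1.

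Some libraries stood apart in material from other cells. Oligodendrocyte markers (5 genes, of which Mbp had the most UMIs) summed to 233 CPM in the members of Sel1Lfl/fl replicate 1 and to 63.2, 53.2 and 58.5 CPM in the other 3 libraries. In the same library the inhibitory list (9 genes, of which Erbb4 had the most) summed to 114 CPM against 30.0, 79.8 and 83.1 CPM, and its defining gene Slc32a1 was at 0 in all 4. The NP marker Tshz2 was at 227 CPM there against 53.8, 31.6 and 51 CPM. Nuclei that look like a mixture of 2 profiles were scored with Scrublet. A share of each library set by its number of barcodes (10.1%, 6.78%, 6.54% and 5.89%) was taken as doublets, from the highest score down. This marked 10, 4, 4 and 1 members, numbers that depend in part on the set shares. In the same order 29, 15, 15 and 13 members held 3 or more UMIs of glial genes. Astrocyte markers summed to 11.4, 4.7, 46.5 and 11.3 CPM and microglia markers to 63.1, 82.2, 84.8 and 47.2 CPM, so both were highest in Sel1LSynCre replicate 1. The endothelial marker Cldn5, the fibroblast marker Col1a2, the CA marker Wfs1 and the Cajal-Retzius markers Lhx1 and Lhx5 were at 0, but other genes of these lists were detected. Reln of the Cajal-Retzius list had 13, 13, 16 and 11 UMIs in 21 members, Cped1 of the fibroblast list 6, 4, 9 and 3 in 16, and Spink8 of the CA list 4, 0, 4 and 3 in 9. Of the endothelial list, Flt1 had 8 UMIs, all in Sel1Lfl/fl replicate 1, and Pecam1 had 1, 3, 1 and 1. For the genes called between genotypes, calls lost without the doublets, without the members with glial UMIs or without Sel1Lfl/fl replicate 1 are given with those values. Between libraries 10 to 34 barcodes were shared, none of them by members.

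Sel1l itself does not check the labels, because the reads come from the 3′ end and can be made from an allele that lost an internal piece. Its UMIs in the members were 79 and 58 in the Sel1Lfl/fl libraries and 92 and 57 in the Sel1LSynCre libraries (75.3, 96.7, 158 and 109 normalised CPM). The log2 fold change was 0.66 ± 0.24 (SE) with an adjusted p of 0.427 (edgeR). Transcripts of Cre went against the label of 1 library. The members held 4 Cre UMIs in the library labelled Sel1Lfl/fl replicate 1, 0 in that labelled Sel1Lfl/fl replicate 2, and 2 and 1 in those labelled Sel1LSynCre. The layer 6 CT nuclei, defined above, held 27, 0, 13 and 15. In all Slc17a7 nuclei outside layer 6b, which include those of layer 6 CT, Cre was at 2.26, 0, 1.85 and 2.02 CPM. The library labelled Sel1Lfl/fl replicate 1 thus held Cre RNA at about the level of the Sel1LSynCre libraries, and what lies behind it was not tested. In the ER genes Hspa5 and Herpud1 that library lay with the other one of its label, at 23.9 and 22.9 CPM against 55.5 and 43.4 CPM for Hspa5 and at 14.5 and 15 CPM against 38.0 and 35.1 CPM for Herpud1 (TMM-scaled, layer 6 CT). Both genes were called between the labelled genotypes in these same layer 6 CT nuclei. Their grouping by label thus follows from that choice and does not check the label. Genotype names below are those of the labels, and each direction rests in part on this library. Xist had 875 and 705 UMIs in the second replicates and none in the first, and Ddx3y 50 and 18 UMIs in the first replicates and none in the second, so each genotype had 1 female and 1 male library.

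The comparison of genotypes asks which genes differ when Sel1L is removed. UMIs were summed over the members of a library, and 7847 genes with enough counts were tested between 2 and 2 libraries with edgeR's quasi-likelihood test (Benjamini-Hochberg adjusted p below 0.05). Enough counts in 2 libraries sufficed, so a gene could be tested through the libraries of a single genotype. Nfil3, Ddit3 and Creb3l2 were tested through Sel1LSynCre in this way, and counts over lists of sparse genes depend in part on it. The test called 9 genes (0.115% of those tested), 3 higher in Sel1LSynCre (0.0382%) and 6 lower (0.0765%). At an unadjusted p below 0.05 there were 729 (9.29%). Both Sel1LSynCre libraries lay above both Sel1Lfl/fl libraries in 20.2% of the genes and below them in 18.8%. The named genes that rose were Nfil3, 1700016P03Rik and Pcsk1, and those that fell were Zfp804b, Il1rapl2, Unc5d, Kcnq5, Lingo2 and Trhde. Values below are CPM normalised by the trimmed mean of M values (TMM), with replicate 1 before replicate 2, and positions are those of GRCm38 in GENCODE.

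**Figure D2:**
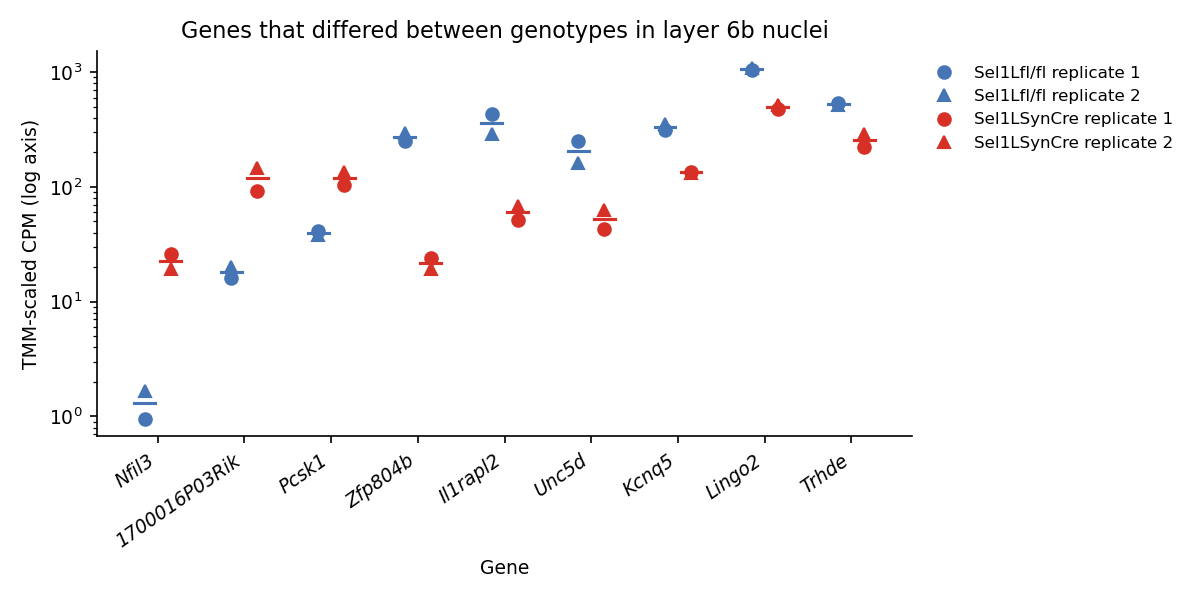
The 9 genes called between genotypes are plotted as TMM-scaled CPM on a log axis, with circles for replicate 1, triangles for replicate 2 and a bar at each genotype's mean. The 2 genotypes do not overlap for any of the 9 genes, and the gap is widest on this axis for Nfil3 (means of 1.31 and 22.5 CPM) and Zfp804b (means of 273 and 21.6 CPM). Nfil3 had 1 UMI in each Sel1Lfl/fl library, so the size of its gap is poorly determined.

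The transcript 1700016P03Rik (chr11:75172560-75177633, plus strand) is a non-coding RNA that is the host of the microRNAs miR-212 and miR-132, a pair known for induction by neuronal activity and CREB. It was at 16.2 and 20 CPM in the Sel1Lfl/fl members and at 92.9 and 145 CPM in the Sel1LSynCre members. The groups did not overlap, and more nuclei carried the transcript, with 22 of 34 and 21 of 33 against 10 of 55 and 9 of 38. The log2 fold change was 2.73 ± 0.31 (SE, edgeR adjusted p = 0.00507). It rose in layer 6 CT (2.20 ± 0.21, edgeR adjusted p = 0.0145) and in layer 5/6 NP nuclei too (1.96 ± 0.23, adjusted p = 0.0404, the only gene called there), and the layer 6b and layer 6 CT changes differed by 0.55 (adjusted p = 0.931). Without Sel1Lfl/fl replicate 1 the log2 fold change was 2.55 with an adjusted p of 0.521, without Sel1Lfl/fl replicate 2 it was 2.85 (0.162), and without the members with glial UMIs 1.90 (0.156). The 3p arms of both microRNAs are shown because they share their seed, bases 2 to 8, here in capitals. They come from RefSeq (GRCm38.p6, plus strand, chr11:75173723-75173744 and chr11:75173443-75173464). The mature microRNAs were not measured, only the host transcript, and Ovca2 overlaps the locus on the other strand.
mmu-miR-132-3p: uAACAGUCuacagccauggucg
mmu-miR-212-3p: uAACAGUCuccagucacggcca

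Pcsk1 (chr13:75089826-75134861, plus strand) encodes a prohormone convertase that cleaves neuropeptide precursors in secretory granules. It was at 41.0 and 38.3 CPM in the Sel1Lfl/fl members and at 103 and 134 CPM in the Sel1LSynCre members. The groups did not overlap, and the log2 fold change was 1.56 ± 0.24 (SE, edgeR adjusted p = 0.0428). In layer 6 CT it rose by 0.86 ± 0.13 (adjusted p = 0.0447), and the difference between the classes, 0.65, had an adjusted p of 0.818. The call was lost without Sel1Lfl/fl replicate 1 (1.61, adjusted p = 0.643), without Sel1Lfl/fl replicate 2 (1.51, 0.271), without Sel1LSynCre replicate 2 (1.37, 0.0877), without the doublets (1.35, 0.106) and without the members with glial UMIs (0.46, 0.854). Its promoter is shown because it holds a full cyclic AMP response element, TGACGTCA in capitals, which begins 78 bases before the RefSeq start. That element was found in 1.79% of 32851 promoters (both strands, from 250 bases before to 50 after a start). It was not found for Nfil3, the other gene that rose with a promoter entry, and was looked for after Pcsk1 had been called. The sequence is RefSeq GRCm38.p6, plus strand, chr13:75089607-75089856.
Pcsk1 promoter: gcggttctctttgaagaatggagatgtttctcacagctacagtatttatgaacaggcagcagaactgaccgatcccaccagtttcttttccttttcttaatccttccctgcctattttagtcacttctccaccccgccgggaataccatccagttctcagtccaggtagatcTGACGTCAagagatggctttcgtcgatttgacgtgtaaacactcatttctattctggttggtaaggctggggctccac

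Nfil3 (chr13:52967209-52981073, minus strand), a leucine zipper transcription factor, rested on few counts. Its UMIs were 1 and 1 in the Sel1Lfl/fl members and 15 and 10 in the Sel1LSynCre members, carried by 1, 1, 7 and 5 nuclei. In Sel1LSynCre replicate 1, 7 of the 15 lay in members scored as doublets, and members with glial UMIs held 11 of the 15 and, in replicate 2, 9 of the 10. Without the members with glial UMIs 1, 0, 4 and 1 UMIs remained, too few to test, and the gene was not tested without the doublets either. The top nucleus of Sel1LSynCre replicate 2 held 4 of the UMIs and was shallow, with 2288 UMIs and 1.22% mitochondrial UMIs. The groups did not overlap with all members counted, and the log2 fold change of 4.03 ± 0.68 (SE) had an edgeR adjusted p of 0.0482. With 1 UMI in each Sel1Lfl/fl library, the size of this fold change is poorly determined. The call was lost without Sel1Lfl/fl replicate 1 (adjusted p = 0.687), without Sel1Lfl/fl replicate 2 (0.242) and without Sel1LSynCre replicate 2 (0.257); without Sel1LSynCre replicate 1 the gene had too few counts to be tested. In layer 6 CT the log2 fold change was 1.08 ± 0.32 (adjusted p = 0.232). The 2 genes that came next by p and did not pass were Rxfp2, the receptor of insulin-like peptide 3, and Dnajc3. Rxfp2 was at 6.68 and 10.0 CPM against 32.7 and 66.9 CPM (log2 fold change 2.60 ± 0.47, edgeR adjusted p = 0.0979). It passed in 5 of the 13 alternatives that tested it, and Dnajc3 in 0 of 16.

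Among the genes that fell, Zfp804b (chr5:6769010-7344756, minus strand), a zinc finger protein gene, had the largest fold change. It was at 249 and 297 CPM in the Sel1Lfl/fl members and at 24.1 and 19.1 CPM in the Sel1LSynCre members. The groups did not overlap, and 19 of 55 and 16 of 38 nuclei carried it against 4 of 34 and 8 of 33. The log2 fold change was -3.64 ± 0.25 (SE, edgeR adjusted p = 5.79e-05), and the call held in all 16 alternatives in which it was tested. Without any 1 library the adjusted p was at most 0.0172, and without the doublets it was 0.00401. The nuclei with the most UMIs held 104, 38, 11 and 2 of 261, 178, 14 and 10 UMIs, and with these 4 nuclei left out the log2 ratio was -4.20. Members scored as doublets held 187, 67, 12 and 1 of these UMIs, and members with glial UMIs held 194, 136, 12 and 8. Without the members with glial UMIs 67, 42, 2 and 2 UMIs remained. In layer 6 CT Zfp804b fell by 1.58 ± 0.18 on the log2 scale (adjusted p = 0.0213), from 417 and 409 CPM to 169 and 108 CPM, and in layer 5/6 NP nuclei the value was -0.10 ± 0.17. The change in layer 6b differed from that in layer 6 CT by -2.10 (edgeR interaction term, adjusted p = 5.26e-05).

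Il1rapl2 (chrX:137570608-138846946, plus strand), of the interleukin 1 receptor accessory protein-like family that acts at synapses, was at 428 and 292 CPM against 51.6 and 68.8 CPM. The groups did not overlap (log2 fold change -2.59 ± 0.24, edgeR adjusted p = 0.000999). It was carried by 25 of 55 and 9 of 38 nuclei against 5 of 34 and 4 of 33. In the Sel1LSynCre libraries 26 of 30 and 27 of 36 UMIs lay in 1 nucleus each. Without Sel1Lfl/fl replicate 1 the log2 fold change was -2.28 with an adjusted p of 0.110, and in members with at least 3 rule genes it was -1.15 (0.410). In layer 6 CT it was -0.74 ± 0.13 (adjusted p = 0.0591). The difference between the classes was -1.91 (interaction adjusted p = 5.26e-05).

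Unc5d (chr8:28646717-29219636, minus strand), a netrin receptor of axon guidance and neuronal migration, was at 253 and 162 CPM in the Sel1Lfl/fl members and at 43.0 and 63.0 CPM in the Sel1LSynCre members. The groups did not overlap, and the log2 fold change was -1.99 ± 0.28 (SE, edgeR adjusted p = 0.0162). The largest nucleus of Sel1Lfl/fl replicate 1 held 105 of its 265 UMIs, and with the top nucleus of each library left out the log2 ratio was -1.67. Without Sel1Lfl/fl replicate 1 the log2 fold change was -1.62 (adjusted p = 0.521), without Sel1Lfl/fl replicate 2 -2.27 (0.0968), and without the members with glial UMIs -1.70 (0.313). The change differed from that in layer 6 CT by -1.47 (interaction adjusted p = 0.00603), a call that was lost without Sel1Lfl/fl replicate 1 (-1.03, 0.137) and without the doublets (-1.02, 0.154).

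Kcnq5, Lingo2 and Trhde fell by smaller amounts. Kcnq5 (chr1:21398403-21961942, minus strand), a subunit of the potassium channels behind the M current, was at 312 and 353 CPM against 136 and 132 CPM (log2 fold change -1.31 ± 0.18, edgeR adjusted p = 0.0145). Lingo2 (chr4:35706647-36951747, minus strand), a leucine-rich repeat membrane protein, was at 1037 and 1082 CPM against 478 and 516 CPM (-1.09 ± 0.14, adjusted p = 0.0112). Trhde (chr10:114398823-114802307, minus strand), the enzyme that degrades thyrotropin-releasing hormone, was at 535 and 520 CPM against 222 and 288 CPM (-1.05 ± 0.17, adjusted p = 0.0482). The genotypes did not overlap for any of the 3. Without the doublets Kcnq5 was at -0.54 (edgeR adjusted p = 0.739) and Lingo2 at -0.76 (0.141), and without the members with glial UMIs they were at -0.11 (0.986) and -0.49 (0.777). All 3 calls were lost without either Sel1Lfl/fl library, where the adjusted p was 0.298, 0.298 and 0.617 without replicate 1 and 0.190, 0.158 and 0.242 without replicate 2. The Trhde call was also lost without Sel1LSynCre replicate 1 (-0.88, adjusted p = 0.116) and without the members with glial UMIs (-1.02, 0.156).

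The 6 lowered genes were also transcribed in other excitatory neurons. In all other Slc17a7 nuclei Il1rapl2 was at 431, 422, 367 and 325 CPM, where the layer 6b members on the same scale, without TMM factors, were at 394, 277, 49.9 and 68.0 CPM. Unc5d was at 492, 605, 485 and 496 CPM in the other nuclei against 232, 153, 41.6 and 62.3 CPM in layer 6b. The other nuclei were higher in all 4 libraries for Zfp804b, Kcnq5 and Lingo2 too. Trhde was the exception, since its 251, 259, 223 and 205 CPM in the other nuclei lay below the 492 and 493 CPM of the Sel1Lfl/fl members. Of the material from other cell types described above, oligodendrocyte, inhibitory and Tshz2 transcripts were highest in Sel1Lfl/fl replicate 1, and astrocyte and microglia markers in Sel1LSynCre replicate 1. The part of such material in these 6 differences was not tested beyond the values without doublets, without glial UMIs and without that library. A member of the Sel1Lfl/fl libraries had a median of 4 and 3 of the 6 genes detected, and a member of the Sel1LSynCre libraries a median of 2 and 2. The 6 genes were picked as lowered in these same members, so this order follows from the choice. Depth was not matched between the libraries.

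**Figure D3:**
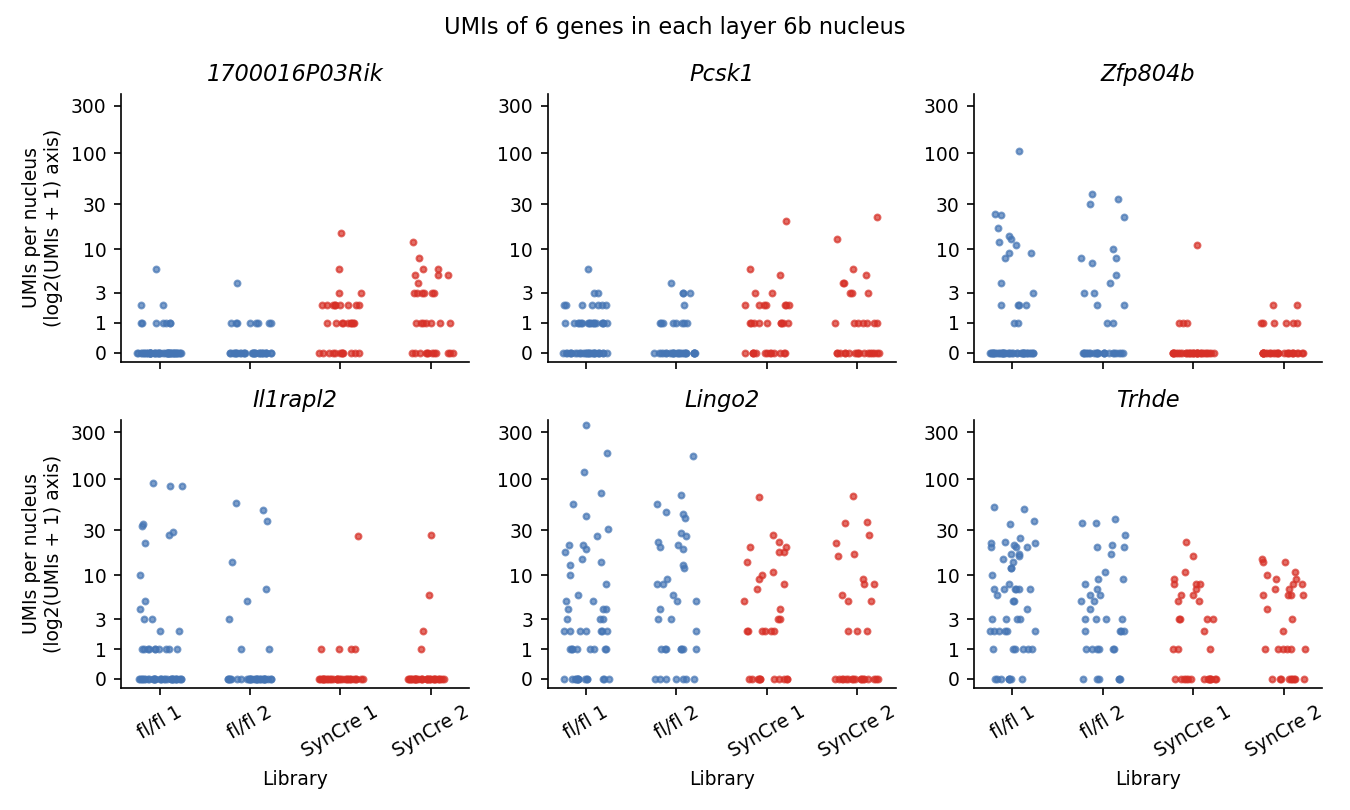
Each point is 1 layer 6b nucleus, and the vertical axis gives its UMIs of the gene on a log2(UMIs + 1) scale for the 4 libraries. More Sel1LSynCre nuclei carry 1700016P03Rik. In Sel1Lfl/fl replicate 1, 19 of 55 nuclei carry any UMI of Zfp804b and 25 of 55 any UMI of Il1rapl2. The top nucleus of that library for each gene holds 104 of its 261 Zfp804b UMIs and 92 of its 449 Il1rapl2 UMIs.

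Whether the genotype effect differed between layer 6b and layer 6 CT was tested with an interaction term over 14587 genes, which called 18 (0.123%), 5 with a higher and 13 with a lower log2 fold change in layer 6b. After Zfp804b and Il1rapl2, the smallest p belonged to Prr16, Klhl1 and Unc5d. Klhl1 (chr14:96102736-96519102, minus strand), a kelch-like actin-binding protein of neurons, was at 27.7 and 35 CPM against 3.44 and 3.82 CPM in layer 6b and at 18.4 to 26.3 CPM in the 4 libraries of layer 6 CT. The 2 changes differed by -3.39 (edgeR adjusted p = 0.00546), and within layer 6b alone the change of -3.02 ± 0.53 did not pass (adjusted p = 0.0819). Klhl1 passed in layer 6b in 2 of the 12 alternatives that tested it. Its UMIs were 29, 21, 2 and 2, of which 28 of the 29 in Sel1Lfl/fl replicate 1 lay in members with glial UMIs and 17 in 1 nucleus. Without the members with glial UMIs 1, 16, 2 and 2 remained, and the groups overlapped. Prr16 was at 167 and 245 CPM against 98.1 and 53.5 CPM in layer 6b, where the change did not pass (-1.41 ± 0.28, adjusted p = 0.110), and at 175 to 197 CPM in all libraries of layer 6 CT, a difference of -1.46 (adjusted p = 0.00247). In the Sel1Lfl/fl libraries 150 of 175 and 111 of 147 of its UMIs lay in members with glial UMIs. Without these members 25, 36, 25 and 14 UMIs remained, and the layer 6b change was -0.27 (edgeR adjusted p = 0.941). The serotonin receptor Htr1f, which marks deep-layer neurons, was at 443 and 652 CPM against 335 and 357 CPM (-0.65 ± 0.19, adjusted p = 0.292), with a difference of -0.77 from layer 6 CT (adjusted p = 0.0138). Kcnq5 (-0.85, adjusted p = 0.0182) and Lingo2 (-0.72, 0.0145) were called as well, but without the doublets their differences were -0.03 (edgeR adjusted p = 1) and -0.32 (0.968). The 5 with a higher change in layer 6b were Ptn, Sox6, Kirrel3, Ppfibp1 and Mitf, named after their values were seen. Members numbered 33 to 55 a library, against 624 to 961 layer 6 CT nuclei, so the layer 6b side has the larger error.

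Genes of the ER were examined as lists, which had been drawn up with earlier results of these data known. None of the ER chaperone and folding genes passed the test in layer 6b, and the list is described by its counts. Of 20 genes 12 had enough counts, of which 6 were higher at an unadjusted p below 0.05 (4.47% of all tested genes were), 9 had both Sel1LSynCre libraries above both Sel1Lfl/fl libraries (20.2% of all) and none had them below. The median log2 fold change was 0.65, against 0.0086 over all genes tested. On the scale without TMM factors, which holds for all sums over lists below, the 20 genes summed to 499 and 552 CPM in the Sel1Lfl/fl members and to 934 and 865 CPM in the Sel1LSynCre members, so the genotypes did not overlap and the ratio of the means was 1.71. In members with at least 3 rule genes the ratio was 1.36.

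Hspa5, the ER chaperone BiP, named after its values were seen, was at 19.1 and 36.7 CPM against 67.1 and 80.2 CPM (log2 fold change 1.48 ± 0.33, edgeR adjusted p = 0.169). The genotypes did not overlap. Over the alternatives the log2 fold change ran from 0.87 without the members with glial UMIs (adjusted p = 0.759) to 2.95 with members thinned to 4000 UMIs (0.175), and it was 0.99 without Sel1Lfl/fl replicate 1 (0.687). Dnajc3, an ER co-chaperone of BiP, was at 38.1 and 48.3 CPM against 110 and 101 CPM (1.31 ± 0.24, adjusted p = 0.0979), again without overlap. Among the most abundant of the list by UMIs, the lectin chaperone Canx had a log2 fold change of 0.64 ± 0.24 (adjusted p = 0.431), Hsp90b1, the ER member of the HSP90 family, of 0.58 ± 0.27 (0.543) and Dnajc10, an ER disulfide reductase, of 0.06 ± 0.22 (0.975). In layer 6 CT, with more nuclei, Hspa5 rose by 1.08 ± 0.14 (adjusted p = 0.0304), and 17 of 20 tested genes of the list had both Sel1LSynCre libraries on top (22.3% of all genes did). The layer 6b change of Hspa5 differed from that in layer 6 CT by 0.40 (interaction adjusted p = 0.977).

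**Figure D4:**
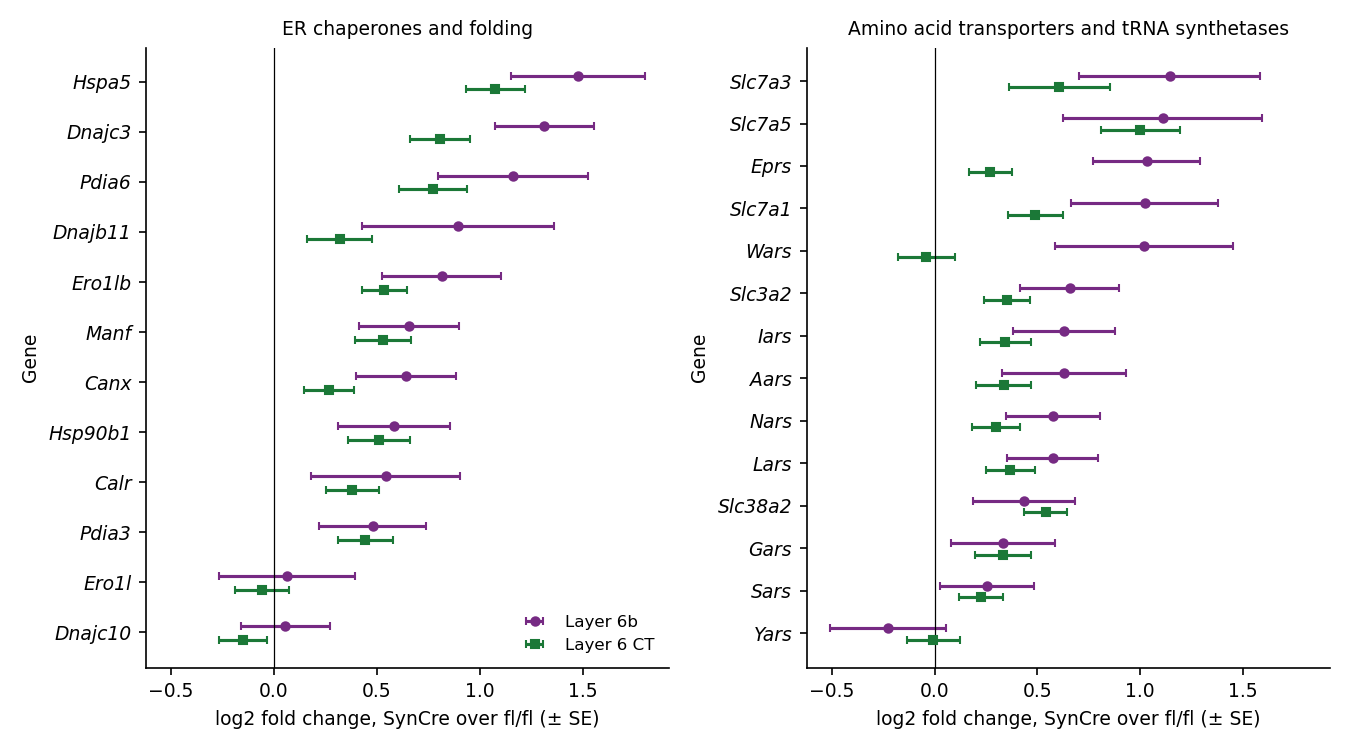
Log2 fold changes of Sel1LSynCre over Sel1Lfl/fl with their standard errors are drawn for the tested genes of 2 lists, as circles for layer 6b and squares for layer 6 CT. Hspa5 leads the ER list in layer 6b at 1.48, Dnajc10 lies at 0.06, and the error bars of layer 6b are the longer ones.

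Promoters of 3 of these genes are shown because they carry the ER stress response element, which the UPR factors ATF6 and XBP1 are known to bind together with NF-Y. The motif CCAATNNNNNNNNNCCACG was searched on both strands, after the values had been seen, and the letters in capitals are its fixed ends. It was found in 39 of 32851 promoters (0.119%) and in 7 of the 16 genes of the ER chaperone list that had a promoter entry, namely Calr, Canx, Creld2, Dnajc3, Hsp90b1, Hspa5 and Pdia6. In the ERAD list 2 of 16 genes held it, Derl3 and Syvn1, and in the lists of UPR factors, stress response targets and amino acid genes none did. A match is a description of the sequence and not of binding. The sequences are RefSeq GRCm38.p6, plus strand, chr2:34771840-34772089, chr14:118937682-118937931 and chr12:17266339-17266588.
Hspa5 promoter: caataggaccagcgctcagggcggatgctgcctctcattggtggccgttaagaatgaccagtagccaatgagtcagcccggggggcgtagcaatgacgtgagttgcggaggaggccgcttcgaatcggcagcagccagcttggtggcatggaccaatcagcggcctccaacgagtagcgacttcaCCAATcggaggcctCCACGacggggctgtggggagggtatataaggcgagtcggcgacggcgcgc
Dnajc3 promoter: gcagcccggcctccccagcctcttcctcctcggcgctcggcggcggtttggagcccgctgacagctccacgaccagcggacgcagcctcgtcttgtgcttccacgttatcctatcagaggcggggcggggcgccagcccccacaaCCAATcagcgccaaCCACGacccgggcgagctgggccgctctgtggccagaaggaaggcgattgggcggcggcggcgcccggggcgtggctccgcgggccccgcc
Pdia6 promoter: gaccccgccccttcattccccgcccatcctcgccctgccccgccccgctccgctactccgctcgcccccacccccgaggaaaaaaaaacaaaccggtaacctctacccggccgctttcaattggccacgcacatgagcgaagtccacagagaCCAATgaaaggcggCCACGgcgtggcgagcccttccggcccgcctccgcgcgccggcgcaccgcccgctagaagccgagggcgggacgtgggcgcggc

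ERAD genes made up the next list. Of its 14 tested genes, 4 were higher at an unadjusted p below 0.05 (4.47% of all tested genes were), 6 had both Sel1LSynCre libraries on top (20.2% of all) and none passed, with a median of 0.11. It summed to 615 and 618 CPM against 813 and 793 CPM, without overlap. Herpud1, which recruits ligase components at the ER membrane and was also named after its values were seen, was at 9.54 and 18.3 CPM against 43.0 and 40.1 CPM (log2 fold change 1.67 ± 0.39, edgeR adjusted p = 0.206) and rose in layer 6 CT (1.31 ± 0.13, adjusted p = 0.0147). Ubxn4, Erlec1 and Edem3, the other abundant members beside Sel1l, had log2 fold changes of 0.48, 0.20 and -0.13, and their adjusted p (edgeR) was 0.504, 0.889 and 0.934. Of the UPR sensors and factors, 8 of 12 were tested, 4 were higher at an unadjusted p below 0.05 and 6 had both Sel1LSynCre libraries on top (4.47% and 20.2% of all), with a median of 0.60. Ddit3 and Creb3l2 of this list met the count filter through the Sel1LSynCre libraries only. They were not tested where a mean of at least 10 counts was required. The counts and the median thus follow in part from the filter. In layer 6 CT, where 11 of the 12 were tested, the median was 0.18. They summed to 251 and 262 CPM against 399 and 387 CPM. The sensor Atf6 was at 97.3 and 81.7 CPM against 165 and 118 CPM (0.65 ± 0.22, edgeR adjusted p = 0.400). The stress factor Ddit3, which codes for CHOP and was named in the same way, had 5 and 5 UMIs against 18 and 9 (1.96 ± 0.54, adjusted p = 0.255) and rose in layer 6 CT (2.03, adjusted p = 0.0266). The sensor kinase Ern1 had a log2 fold change of 0.55 ± 0.29 and the site proteases Mbtps1 and Mbtps2 of -0.14 ± 0.33 and -0.01 ± 0.29.

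Amino acid transporters and tRNA synthetases lay higher in the Sel1LSynCre members as a list, though no single gene passed. Of 20 genes 14 were tested, 9 were higher at an unadjusted p below 0.05 (4.47% of all), 11 had both Sel1LSynCre libraries on top (20.2% of all) and none had them below, with a median of 0.63. The sum was 658 and 708 CPM in the Sel1Lfl/fl members and 1122 and 999 CPM in the Sel1LSynCre members, a ratio of means of 1.55. The synthetase Eprs was at 64.9 and 50 CPM against 144 and 93.6 CPM (log2 fold change 1.03 ± 0.26, edgeR adjusted p = 0.229). Lars was at 86.8 and 125 CPM against 150 and 160 CPM (0.57 ± 0.22, adjusted p = 0.442), and the glutamine transporter Slc38a2 at 67.7 and 86.7 CPM against 84.3 and 122 CPM, where the genotypes overlapped. Sars had a log2 fold change of 0.26 ± 0.23 (adjusted p = 0.799) and overlapped too. Serine and one-carbon genes had 8 of 18 tested, a median of 0.26 and sums of 295 and 275 CPM against 391 and 332 CPM, and its most abundant member Mat2a, which makes S-adenosylmethionine, had a log2 fold change of -0.17 ± 0.21. The ATF4 target list was too sparse for a summary of tests, with 2 of 16 genes tested (Atf4 at -0.62 ± 0.41 and Cebpg at 0.22 ± 0.33), and summed to 84.1 and 87.0 CPM against 111 and 149 CPM.

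Several induced genes were too sparse to test in so few nuclei, and their counts are given instead. Fam129a, a stress-induced regulator of translation, had 0 and 0 UMIs in the Sel1Lfl/fl members and 5 and 19 in the Sel1LSynCre members. All 19 UMIs of Sel1LSynCre replicate 2 came from 1 nucleus. Trib3, a pseudokinase induced by stress, had 0 and 0 against 4 and 2 UMIs (at least 3.14-fold higher when 3 counts over the group stand for the zeros), Derl3 of the ERAD channel family 1 and 0 against 6 and 2, and the glutathione-degrading enzyme Chac1 1 and 0 against 8 and 1. The lowest Sel1LSynCre count of Chac1 thus equalled the highest Sel1Lfl/fl count, while Fam129a and Trib3 were detected in both Sel1LSynCre libraries and in neither Sel1Lfl/fl library.

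These genes belong to a panel of 10 (Derl3, Sdf2l1, Creb3l2, Fam129a, Trib3, Chac1, Cyb5r2, Slc7a3, Slc7a11 and Eif4ebp1) that was counted in each nucleus. After each nucleus was thinned to 4000 UMIs, which left out 1 shallower member in each Sel1LSynCre library, 5 of 55 (9.09%, 95% Wilson interval 3.95 to 19.6) and 3 of 38 (7.89%, 2.72 to 20.8) members of the Sel1Lfl/fl libraries held at least 1 panel gene. In the Sel1LSynCre libraries 10 of 33 (30.3%, 17.4 to 47.3) and 8 of 32 (25%, 13.3 to 42.1) did. The mean share was 19.2 percentage points higher, no Sel1LSynCre library lay within the Sel1Lfl/fl range, and p was 0.33 (exact permutation, the smallest that 2 against 2 allow). The panel was drawn up as induced genes with earlier results of these same libraries known. The separation follows in part from that choice, and the p does not test whether the panel rises. With all UMIs the counts were 15 of 55, 13 of 38, 22 of 34 and 10 of 33, so that Sel1LSynCre replicate 2 at 30.3% lay between the Sel1Lfl/fl libraries at 27.3% and 34.2%. Over all UMIs, panel genes gathered in single nuclei. No Sel1Lfl/fl member held more than 2 of the 10, while 7 members of Sel1LSynCre replicate 1 and 2 of Sel1LSynCre replicate 2 held 3 to 6. Of these 9 nuclei 2 were scored as doublets and 6 held 3 or more glial UMIs. They had 14644 to 71997 UMIs, and after thinning to 4000 UMIs no member of any library held more than 2 panel genes. The nucleus with 43254 UMIs, of Sel1LSynCre replicate 2, carried 60.8% of the panel UMIs of its library. Creb3l2, an ER-resident transcription factor of the panel, was at 4.77 and 6.67 CPM against 32.7 and 21.0 CPM (log2 fold change 2.27 ± 0.51, edgeR adjusted p = 0.184), and the arginine transporter Slc7a3 at 10.5 and 11.7 CPM against 29.2 and 19.1 CPM (1.14 ± 0.44, adjusted p = 0.444).

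**Figure D5:**
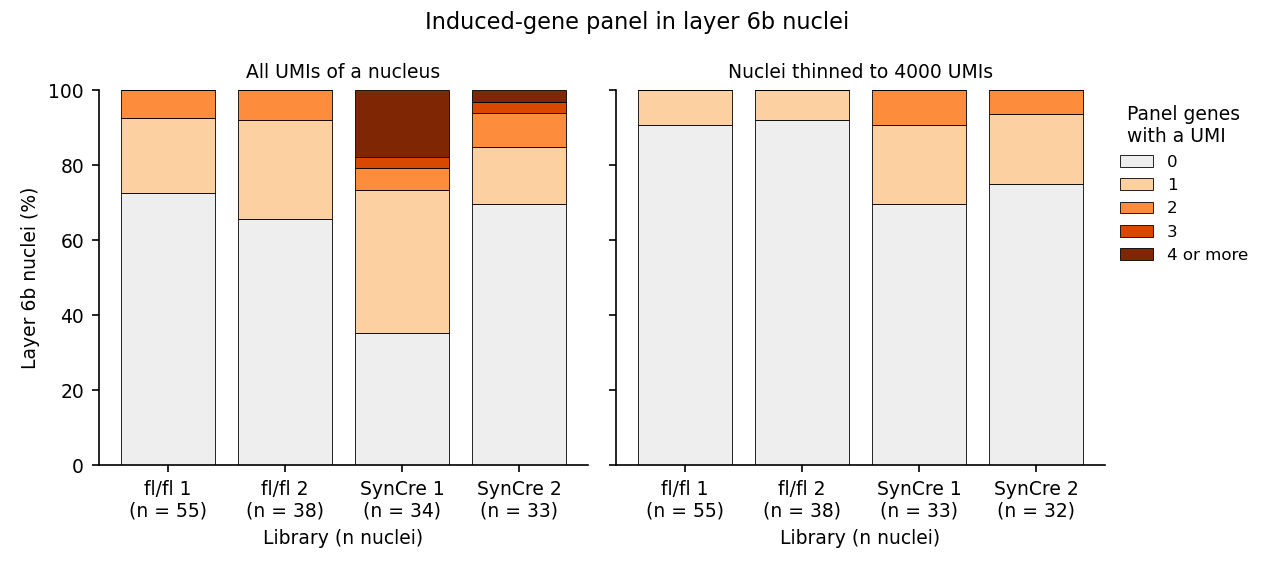
Stacked bars give the percentage of layer 6b nuclei of each library with 0, 1, 2, 3 or at least 4 panel genes, from all UMIs on the left and after thinning to 4000 UMIs on the right. After thinning 69.7% or more of every library has no panel gene, and the coloured part is larger in both Sel1LSynCre libraries (30.3% and 25%) than in both Sel1Lfl/fl libraries (9.09% and 7.89%).

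No identity gene of layer 6b passed the test between genotypes, but only 0.115% of all tested genes did. The 9 further markers summed to 2808 and 2103 CPM against 2535 and 2272 CPM, with none of 8 tested genes passing and a median of -0.07. Rxfp1 had the largest value of them, at 169 and 192 CPM against 91.2 and 117 CPM (log2 fold change -0.79 ± 0.20, edgeR adjusted p = 0.230), and Inpp4b, Tmem163 and Nr4a2 had -0.11, -0.04 and 0.27. The 8 deep-layer transcription factors and genes shared with layer 6 CT summed to 5332, 5143, 4994 and 5441 CPM, with Hs3st4 at -0.05 ± 0.12, Zfpm2 at -0.31 ± 0.14 (adjusted p = 0.498), Tle4 at -0.10 ± 0.14 and Sox5 at 0.23 ± 0.16. The glutamatergic and synaptic genes, among them Syt1, Gria2, Grin2b and Grm5, summed to 13469, 13478, 13457 and 13775 CPM, and none of 15 tested passed (median -0.04). At an unadjusted p below 0.05 (edgeR), 2 of them were lower (4.82% of all) and none higher (4.47% of all). Both Sel1LSynCre libraries lay above both Sel1Lfl/fl libraries in 2 and below them in 4 (20.2% and 18.8% of all). Receptors and peptides, of which Htr1f, Htr2c, Hcrtr2 and Drd1 were the most abundant, summed to 703, 868, 627 and 629 CPM, and none of 5 tested passed.

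Ion channel genes were the one list with a called member. All 18 channel genes were tested, 1 fell (Kcnq5, against 0.0765% of all tested genes), 6 were lower at an unadjusted p below 0.05 (4.82% of all tested genes were) and 10 had both Sel1LSynCre libraries below both Sel1Lfl/fl libraries (18.8% of all), with a median of -0.29. The Kcnq5 call was lost without the doublets and without the members with glial UMIs, as given above. The list summed to 6808 and 6253 CPM against 6046 and 5615 CPM. Kcnq3, which pairs with Kcnq5 in the M current, was at 662 and 622 CPM against 533 and 426 CPM (log2 fold change -0.42 ± 0.16, edgeR adjusted p = 0.428), Kcnd2, a subunit of the A-type potassium current, at -0.31 ± 0.18, the calcium channel Cacna1e at -0.24 ± 0.15 and Cacna1a at 0.23 ± 0.13.

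Immediate early genes, which follow recent activity, did not share a direction. Of 10 genes 6 were tested and none passed. The orphan nuclear receptor Nr4a1 was at 46.7 and 58.3 CPM against 101 and 89.8 CPM (log2 fold change 0.89 ± 0.24, edgeR adjusted p = 0.244), and Npas4, an activity-dependent transcription factor, at 51.5 and 46.7 CPM against 20.6 and 32.5 CPM (-0.90 ± 0.32, adjusted p = 0.412). Nr4a3, a relative of Nr4a1 named after its values were seen, was at 20 and 20 CPM against 37.8 and 68.8 CPM (1.39 ± 0.36, edgeR adjusted p = 0.230). The genotypes did not overlap for these 3 genes, of which 2 were higher and 1 lower in Sel1LSynCre, while Egr1, Junb and Arc overlapped. Of all tested genes, 20.2% had both Sel1LSynCre libraries on top and 18.8% had them below.

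The other classes had other numbers of calls. In layer 6 CT 40 of 15470 genes passed (0.259%), 23 higher (0.149%) and 17 lower (0.11%), and in layer 5/6 NP nuclei 1 of 12492 (0.00801%). When the counts of these classes were thinned to the totals of the layer 6b members, layer 6 CT had 13 calls and layer 5/6 NP had 0 (edgeR, with 520 genes at an unadjusted p below 0.05), beside the 9 of layer 6b. Layer 6b itself, thinned to its smallest library, had 30 calls.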

How the data were processed

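Nuclei from 4 libraries (10x Genomics 3′ v3 chemistry, 1 mouse each) were counted by the authors, who deposited raw UMI counts of 32286 features per barcode, neither normalised nor cleared of doublets. The submitters' processing notes name Cell Ranger 6.1.0 and GRCm38; whether introns or both strands were counted is not given in the sources used here, so reads of a gene and of one overlapping it on the other strand (Ovca2, Tex47 and others) may be mixed.

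Members, the compared classes and all gene lists were chosen with earlier results of these data known. UMIs were summed per library and class and tested with edgeR 4.0.16 in R 4.3.3 (TMM, filterByExpr, quasi-likelihood F test, Benjamini-Hochberg over all genes tested). Each standard error is the fold change divided by the root of F. Mice are separate, so p-values measure spread between 2 animals a group. Counts of replicates differed by more than sampling noise (chi-square per degree of freedom 2.73 and 1.80). Doublets were scored with Scrublet in scanpy 1.11.5. The top-scoring nuclei of each library, in number set by expected rates of 5.89% to 10.1%, were taken as doublets and kept in the main values. Other tools were Python 3.11.15, numpy 2.4.6, scipy 1.17.1, matplotlib 3.10.9 and, as an alternative, DESeq2 1.42.0. The text names, per direction, all called genes with at least 20 UMIs (or the 5 smallest p where fewer than 5 passed), up to 4 list members by UMIs, and the 5 smallest interaction p. On simulated layer 6b counts the test recovered 37.5% of 200 genes changed 2-fold (7449 genes tested) and 88.5% of those changed 4-fold (7436 tested); in the simulated interaction 22.0% and 54.0% were recovered. Positions are from GENCODE vM21, in which 32235 features were found, and promoters and microRNAs from RefSeq. Alternatives were size factors, DESeq2, filters, prior count, thinning, doublets, glial UMIs, stricter markers, a replicate block and leaving out each library. One further gene list is not reported here.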

Additional observations from a re-analysis of the deposited data

Results flagged for a closer look

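The genotype effect of 8 named genes differed between layer 6b and layer 6 CT nuclei by the interaction term itself (edgeR). The difference in log2 fold change, layer 6b minus layer 6 CT, was -2.10 for Zfp804b and -1.91 for Il1rapl2 (adjusted p = 5.26e-05 for both). It was -1.47 for Unc5d (edgeR adjusted p = 0.00603), -1.46 for Prr16 (0.00247) and -3.39 for Klhl1 (0.00546). The smaller differences were -0.85 for Kcnq5 (edgeR adjusted p = 0.0182), -0.77 for Htr1f (0.0138) and -0.72 for Lingo2 (0.0145). In all 8 the layer 6b change was the lower one, and a log2 fold change in layer 6 CT alone passed for Zfp804b only. The interaction also called genes with the higher change in layer 6b, which are not among the 8, namely Ptn, Sox6, Kirrel3, Ppfibp1 and Mitf. Sel1Lfl/fl replicate 1 held 55 of the 160 members and, at the highest set doublet rate, 10 of the 19 taken as doublets. It also held more oligodendrocyte, inhibitory and Tshz2 transcripts than the other libraries, and it held Cre transcripts against its label. Without the doublets the differences of Zfp804b (-2.07, edgeR adjusted p = 0.00553) and Il1rapl2 (-2.29, 8.83e-08) passed, as did those of Klhl1 (-3.23, 0.00308), Htr1f (-1.01, 0.000246) and Prr16 (-1.07, 0.0193). Those of Unc5d (-1.02, edgeR adjusted p = 0.154), Lingo2 (-0.32, 0.968) and Kcnq5 (-0.03, 1) did not. With DESeq2, and with all pseudobulks thinned to the smallest, the differences of Zfp804b and Il1rapl2 passed and those of the other 6 genes did not. In Sel1Lfl/fl replicate 1, 28 of 29 Klhl1 UMIs and 150 of 175 Prr16 UMIs lay in members with glial UMIs. Without these members the 4 libraries held 1, 16, 2 and 2 UMIs of Klhl1 and 25, 36, 25 and 14 of Prr16. What lies behind these differences was not tested.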

How the results depend on the processing

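The count of genes called in layer 6b was 9 and stayed between 7 and 9 with size factors by relative log expression, the earlier quasi-likelihood fit, a mean of at least 10 counts, a prior count of 2 and without doublets. It was 14 with DESeq2 (2 higher, 12 lower, with no adjusted p given for 5020 genes), 3 with no filter beyond 1 count, 30 with every library thinned to the smallest pseudobulk, 2 in members with at least 3 rule genes, 4 without members with glial UMIs and 3 with each member thinned to 4000 UMIs, an alternative added after seeing the data. Leaving out 1 library gave 1 to 34 calls. It gave 1 without Sel1Lfl/fl replicate 1, 2 without Sel1Lfl/fl replicate 2, 34 without Sel1LSynCre replicate 1 and 13 without Sel1LSynCre replicate 2, and the single mouse left in an arm is then assumed to vary like the other arm. Zfp804b passed in 16 of 16 alternatives, Il1rapl2 in 14, 1700016P03Rik in 13, Unc5d in 10, Kcnq5 and Lingo2 in 9, and Pcsk1 and Trhde in 8; Nfil3 passed in 4 of the 9 that gave it an adjusted p. None of these 9 genes changed direction in any of these alternatives.

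With a replicate block the count was 16 (6 higher, 10 lower). Same-numbered libraries share only a number and, by Xist and Ddx3y, a sex, and their deviations from the group means correlated at 0.158 over 7763 genes with 2 pairs.

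The interaction with layer 6 CT called 18 genes and 20 with size factors by relative log expression, but 2 with DESeq2, 2 after thinning, 6 with layer 5/6 NP as reference, 33 without doublets, 28 with a mean of at least 10 counts and 25 to 48 with 1 library left out. Thinned to the layer 6b totals, layer 6 CT had 13 calls instead of 40 and layer 5/6 NP had 0 instead of 1. The difference in share, -0.00871 points, was 0.0155 without doublets, 0.0146 without members with glial UMIs and -0.0261 to 0.00869 with 1 library left out. It was -0.0826 as a share of Slc17a7 nuclei, -0.0492 with at least 3 rule genes and -0.0389 with nuclei thinned to 4000 UMIs, and the exact permutation test cannot go below p = 0.33 in any of these. The ER chaperone sum was 374 CPM higher in Sel1LSynCre, 551 after thinning each member, 426 without doublets, 189 with at least 3 rule genes and 340 to 409 with 1 library left out; the amino acid list was 377 CPM higher, 246 with at least 3 rule genes and 316 to 439 with 1 library left out. These sums were added after seeing the data. The causes of these shifts were not tested. With 529503 UMIs in the smallest pseudobulk, genes of a few CPM could not be tested.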
